A study of Mus musculus with 8 samples.

Results

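Dab2 and 6 regulators of primitive endoderm (Gata4, Gata6, Sox7, Sox17, Hnf4a and Pdgfra) were followed in RNA-seq counts of E14 mouse embryonic stem cells (ESCs). These 7 genes, of 55335 in the count table, were chosen by name with results of these data already known, so their differences between groups are given as a description and carry no test. E14 is an established mouse ESC line. The 4 groups of 2 biological duplicates were infected with lentivirus for a negative control shRNA (NG, called control here) or for shRNAs against Sox2 (Sox2-KD), Hnrnpk (the pair labelled hnRNPK-KD) or Cdk9 (Cdk9-KD). Every group, control included, was grown on gelatin with LIF, the GSK3 inhibitor CHIR99021 and the MEK inhibitor PD0325901, and was selected with puromycin. The sources used here do not say which shRNA of a target each library received, or whether duplicates came from separate infections, so the spread given below may be partly technical.

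Primitive endoderm is the extraembryonic lineage that forms beside the epiblast in the blastocyst and later gives the visceral and parietal endoderm of the yolk sac. GATA6 starts its programme, and GATA4, SOX17 and SOX7 act after it, while FGF signalling through MEK and ERK favours it over the epiblast that ESCs stand for. PDGFRA is a receptor tyrosine kinase on the cells of this lineage, HNF4A is a nuclear receptor of visceral endoderm, and DAB2 is an endocytic adaptor that links cargo receptors such as megalin to clathrin. In ESC cultures this programme is normally low, and forced GATA6 or GATA4 is known to turn it on.

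Total counts ran from 16709201 to 17719366 per library, so that 1 count was worth about the same in each. The ESC label was borne out by its markers: the summed level of 8 ESC markers, among them Pou5f1 and Nanog, was between 5989 and 8050 CPM in all 8 libraries. By edgeR and by DESeq2, 0 of the 8 were called in any knockdown against control, with Nanog in Sox2-KD and Zfp42 in Cdk9-KD the only ones at an unadjusted p under 0.05. CPM are counts scaled to a common library size, with TMM factors that correct for composition. Sox2 was at 7324 and 9257 counts in control and 5831 and 4968 in Sox2-KD (log2FC -0.64 ± 0.16 SE, edgeR adjusted p = 0.0479), and missed the threshold with the replicate block (adjusted p = 0.0669), with library totals (log2FC -0.57) and without most single libraries. Hnrnpk was at 19436 and 19736 counts in control and at 11890 and 19663 in the pair labelled hnRNPK-KD, so that replicate 2 of that label did not have less Hnrnpk mRNA than control. Cdk9 was at 1931 and 2254 counts in control and 1251 and 899 in Cdk9-KD (log2FC -0.91 ± 0.18 SE, edgeR adjusted p = 0.0985).

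In Sox2-KD, Dab2 was far above every other library, Gata6 was higher, Sox17 and Sox7 were higher at a few counts, Pdgfra was marginally higher, and Gata4 and Hnf4a lay on both sides of control. A gene was called when its adjusted p from the edgeR quasi-likelihood test over all tested genes was under 0.05 and its absolute log2FC over 0.6. Of the 7 genes, 6 passed the filter on low counts and Sox7 did not. By these thresholds 2 were called higher in Sox2-KD against control, Dab2 and Gata6, and none lower, beside 2.63% of the 16504 tested genes called higher and 1.69% called lower. Since the genes were selected on this contrast, nothing is read from that count. Gata6 and Sox17 passed the filter only through the Sox2-KD libraries and therefore had to differ to be tested. In bulk RNA, more cells of a type and more RNA per cell cannot be told apart.

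**Figure D1:**
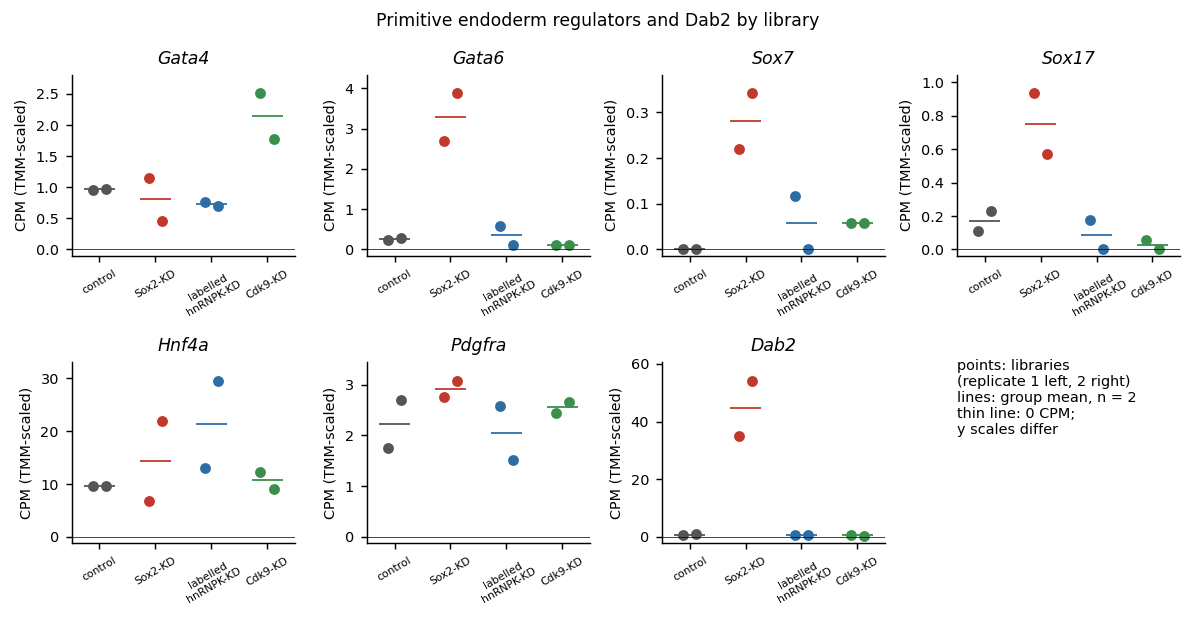
TMM-scaled CPM of the 7 genes (y axes, linear, a scale for each gene) in each of the 8 libraries, grouped on the x axes as control, Sox2-KD, labelled hnRNPK-KD and Cdk9-KD, with points for libraries and lines for the mean of 2. Both Sox2-KD points stand above all others for Dab2, Gata6, Sox7, Sox17 and, narrowly, Pdgfra, while for Gata4 both Cdk9-KD points are the highest and for Hnf4a the duplicates of Sox2-KD and of the pair labelled hnRNPK-KD lie far apart.

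Dab2 (ENSMUSG00000022150.16) spans positions 6299788 to 6440712 of chromosome 15 in GRCm38, + strand. Its promoters are shown because it had the largest difference of the set and because GATA and SOX factors, which bind short DNA motifs, make up most of the other members. RefSeq (GRCm38.p6) gives 2 start sites, and each sequence runs 5′ to 3′ on the + strand from 250 bases before to 50 bases after the start. The GATA letters searched, on both strands, were AGATAA with its forms TGATAA or else AGATAG or else TGATAG, and the SOX letters were CATTGT or else CTTTGT. Capitals mark the matches found, none of which overlap. A TTATCT in capitals is AGATAA on the other strand.
Dab2 upstream start, chr15:6299539-6299838: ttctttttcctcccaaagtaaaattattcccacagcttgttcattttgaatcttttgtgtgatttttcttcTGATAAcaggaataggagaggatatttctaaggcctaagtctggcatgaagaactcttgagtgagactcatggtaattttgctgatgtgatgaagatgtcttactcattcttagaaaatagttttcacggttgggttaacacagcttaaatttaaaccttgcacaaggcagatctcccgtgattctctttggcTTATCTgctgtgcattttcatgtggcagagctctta
Dab2 downstream start, chr15:6386498-6386797: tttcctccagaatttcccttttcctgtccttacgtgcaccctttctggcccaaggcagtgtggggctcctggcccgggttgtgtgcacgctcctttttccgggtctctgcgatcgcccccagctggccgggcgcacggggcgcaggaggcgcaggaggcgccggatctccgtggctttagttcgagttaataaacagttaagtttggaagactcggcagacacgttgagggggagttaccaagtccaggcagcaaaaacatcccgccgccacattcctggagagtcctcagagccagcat
The upstream window held 2 GATA matches, beginning 179 bases before and 14 bases after the start, and the downstream window held 0. SOX letters were in 0 of the 2 windows. Sequences were also found for Hnf4a and Pdgfra, which were not called in Sox2-KD. The upstream Hnf4a window held 1 GATA match, beginning 52 bases before the start. The downstream Hnf4a window and the Pdgfra window held 0. Among 32851 promoters of the same length, 29.8% held a GATA match and 28.6% a SOX match, so that letters of this kind are common and these matches are a description only. The counts are per gene and do not tell which start was used. The upstream Dab2 window was poorer in G and C (37.7%) than the downstream Dab2 window (59.3%).

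Dab2 was counted 12 and 15 times in the control libraries, 637 and 950 times in Sox2-KD, 8 and 11 times in the pair labelled hnRNPK-KD and 12 and 4 times in Cdk9-KD. The 6 libraries outside Sox2-KD overlapped, and both Sox2-KD libraries were far above them. In CPM, Dab2 went from 0.768 ± 0.13 (SD, n = 2) in control to 44.6 ± 13.6 (SD, n = 2) in Sox2-KD. The ratio of the pooled counts was 57.9, with an exact 95% interval of 39.7 to 88.2 that covers counting error only. Dab2 was above 3.52% of the tested genes by CPM per kb of exon in control and above 58.3% of them in Sox2-KD. Leaving out single libraries moved its log2FC of 5.85 ± 0.40 (SE) between 5.50 and 6.12. None of the Sox2 shRNAs of the study matched a Dab2 transcript with fewer than 7 mismatches. A match would act to lower Dab2, so this search cannot bear on its higher level in Sox2-KD. Genes outside the set and the knockdown targets were not searched, and off-target effects of the shRNAs were not tested.

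The GATA factors differed from each other. Gata6, which heads the programme, was counted 4 and 5 times in control and 49 and 68 times in Sox2-KD. It was counted 10 and 2 times in the pair labelled hnRNPK-KD and 2 and 2 times in Cdk9-KD. Both Sox2-KD libraries were above the other 6, and the pooled ratio to control was 12.8 (exact 95% counting interval 6.52 to 28.7). The fitted log2FC was 3.65 ± 0.62 (SE) and ran from 3.36 to 3.88 without single libraries, and Gata6 was no longer called when control replicate 1, control replicate 2 or Sox2-KD replicate 2 was left out.

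Gata4, which binds the same motif, was at 17 and 17 counts in control, 21 and 8 in Sox2-KD, 13 and 12 in the pair labelled hnRNPK-KD and 43 and 30 in Cdk9-KD. In Sox2-KD its duplicates lay on both sides of control (log2FC -0.25 ± 0.51 SE), and the sign changed with the library left out, from -1.08 to 0.25. The highest Gata4 was in Cdk9-KD, where both libraries were above the other 6. The pooled ratio of Cdk9-KD to control was 2.22 (exact 95% counting interval 1.46 to 3.44), with a log2FC of 1.14 ± 0.48 (SE) that was not called.

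Sox17 and Sox7 are SOX factors of the F subgroup, distinct from Sox2. Sox17 had 2 and 4 counts in control, 17 and 10 in Sox2-KD, 3 and 0 in the pair labelled hnRNPK-KD and 1 and 0 in Cdk9-KD. The Sox2-KD libraries were the highest, with a pooled ratio to control of 4.44 (exact 95% counting interval 1.79 to 13.1) and a log2FC of 2.10 ± 0.84 (SE) that was not called. Sox7 had 0 and 0 counts in control, 4 and 6 in Sox2-KD, 2 and 0 in the pair labelled hnRNPK-KD and 1 and 1 in Cdk9-KD. With control set at a floor of 3 counts over the group, the pooled ratio of Sox7 in Sox2-KD to control was 3.29. This ratio takes the Sox2-KD counts as exact, so it is no lower bound. Sox7 and Gata4 lie on the same chromosome with 671980 bases between them, and only Sox7 was higher in both Sox2-KD libraries than in every other.

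Hnf4a was the most abundant of the set in control. It was at 172 and 169 counts in control, 123 and 385 in Sox2-KD, 224 and 508 in the pair labelled hnRNPK-KD and 210 and 153 in Cdk9-KD. Its Sox2-KD duplicates fell on both sides of control, and the log2FC of 0.57 ± 0.49 (SE) became -0.52 without Sox2-KD replicate 2 and 1.17 without Sox2-KD replicate 1. Both of the pair labelled hnRNPK-KD were above both control libraries, with a log2FC of 1.14 ± 0.49 (SE) that was 0.42 when replicate 2, the library without less Hnrnpk, was left out and 1.60 when replicate 1 was. Pdgfra, the receptor of the set, was at 31 and 47 counts in control, 50 and 54 in Sox2-KD, 44 and 26 in the pair labelled hnRNPK-KD and 42 and 45 in Cdk9-KD. Both Sox2-KD libraries were above the other 6, but only just, with 2.75 and 3.08 CPM beside a highest value of 2.69 in control. The mean in Sox2-KD (2.91 ± 0.236 SD, n = 2) differed from that in control (2.22 ± 0.67 SD, n = 2) by about the spread of the control libraries, and the log2FC was 0.39 ± 0.39 (SE).

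**Figure D2:**
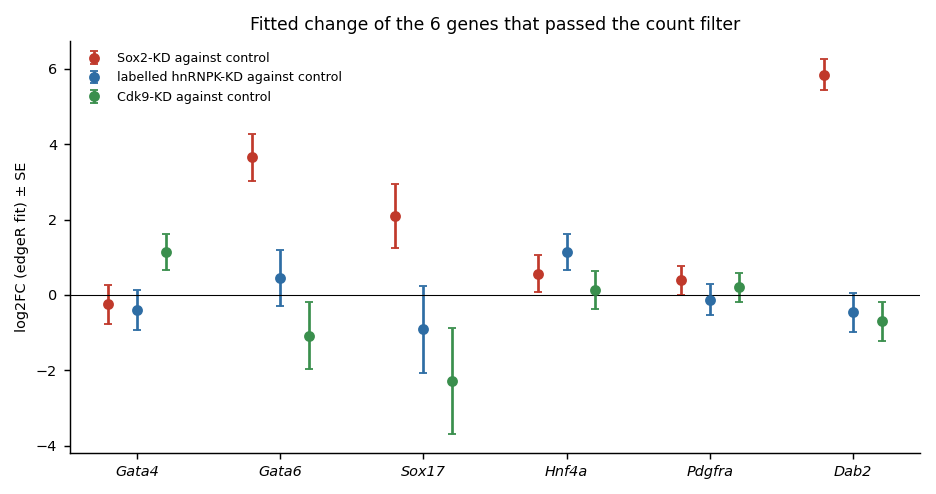
Fitted log2FC ± SE (y axis) of the 6 genes that passed the count filter (x axis) in each knockdown against the same 2 control libraries. Dab2 at 5.85 and Gata6 at 3.65 stand apart in Sox2-KD, and the values of the pair labelled hnRNPK-KD and of Cdk9-KD lie between -2.28 and 1.14.

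The pair labelled hnRNPK-KD and the Cdk9-KD libraries did not have the Dab2 and Gata6 levels of Sox2-KD. In the pair labelled hnRNPK-KD, the edgeR quasi-likelihood test called 0 of the 6 genes, beside 0% of tested genes called higher and 0% called lower. DESeq2 also called 0 of the 6, and 1 of them, Hnf4a, had an unadjusted p under 0.05. Of all 16504 tested genes DESeq2 called 74 there, and 1325 had such a p. Dab2 had a log2FC of -0.46 ± 0.51 (SE) there, which was -0.72 without replicate 2, and Gata6 went from 0.45 ± 0.74 (SE) to 1.15 without replicate 2 and to -1.10 without replicate 1. In Cdk9-KD the same test called 0 of the 6, beside 0.0545% called higher and 0.0848% called lower. DESeq2 again called 0, and 1 gene, Gata4, had an unadjusted p under 0.05. Of all tested genes DESeq2 called 221 in Cdk9-KD, and 1720 had such a p. Dab2 had a log2FC of -0.70 ± 0.52 (SE), which was -1.70 without Cdk9-KD replicate 1 and -0.13 without Cdk9-KD replicate 2. Gata6 had one of -1.08 ± 0.89 (SE) and Sox17, with a single count in the group, of -2.28 ± 1.41 (SE), which was -4.64 without Cdk9-KD replicate 1 and -1.44 without Cdk9-KD replicate 2. These contrasts share the control libraries.

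Set directly against the other knockdowns, Sox2-KD again had the higher Dab2 and Gata6. Against the pair labelled hnRNPK-KD, 2 of the 6 were called higher, Dab2 (log2FC 6.31 ± 0.42 SE) and Gata6 (3.20 ± 0.59 SE), beside 3.95% of tested genes called higher and 1.95% called lower. Without replicate 2 of that label the value of Dab2 was 6.56 and that of Gata6 was 2.48, and Gata6 was then not called. Against Cdk9-KD, 3 were called higher, Dab2 (6.55 ± 0.43 SE), Gata6 (4.72 ± 0.69 SE) and Sox17 (4.38 ± 1.13 SE), beside 4.77% called higher and 2.56% called lower. The fitted value of Sox17 rests on 1 count in Cdk9-KD and is no bound, and Sox17 was not called there once any control, Sox2-KD or Cdk9-KD library was left out, nor with the replicate block, with DESeq2 or with no filter. Dab2 there was 7.53 without Cdk9-KD replicate 1 and 5.97 without Cdk9-KD replicate 2. Gata4 went the other way, with a log2FC of -1.40 ± 0.49 (SE) against Cdk9-KD, which the likelihood ratio test called and the edgeR quasi-likelihood test did not. It was -2.22 without Sox2-KD replicate 1 and -0.89 without Sox2-KD replicate 2. The members were chosen with these groups known, so these counts too are a description.

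Compared per kb of exon, which allows levels to be set beside each other between genes, the order of the set changed in Sox2-KD. In control, Hnf4a led with 2.01 CPM per kb and made up 75.6% of the summed level of the 7 genes. Gata4 (0.247) and Pdgfra (0.221 ± 0.0668 SD) followed and did not differ beyond their spread, then Dab2 (0.105 ± 0.0177 SD), then Gata6 (0.0393 ± 0.00665 SD) and Sox17 (0.0358 ± 0.0173 SD), which also overlapped, and Sox7 was at 0. In Sox2-KD, Dab2 led with 6.08 ± 1.85 (SD) CPM per kb and 59.0% of the sum, ahead of Hnf4a at 2.98 ± 2.23 (SD). Gata6 (0.505 ± 0.129 SD) came next, above Pdgfra (0.291 ± 0.0236 SD), Gata4 (0.206 ± 0.126 SD), Sox17 (0.158 ± 0.0539 SD) and Sox7 (0.0852 ± 0.0263 SD). Hnf4a kept 88.8% of the sum in the pair labelled hnRNPK-KD and 70.8% in Cdk9-KD, where Gata4 took 17.6%.

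**Figure D3:**
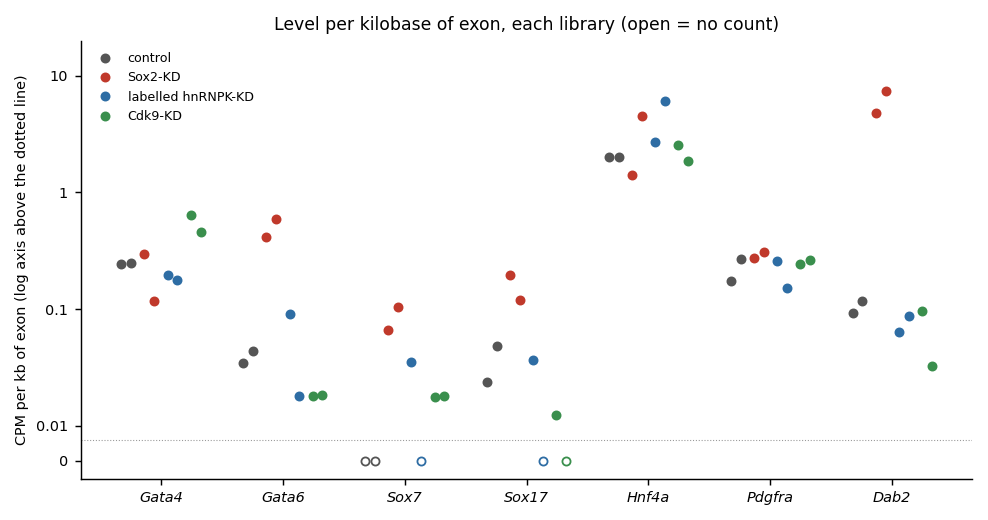
CPM per kb of exon (y axis, logarithmic above the dotted line) of the 7 genes (x axis) in each library, coloured by group, with libraries that had no count drawn open on the row marked 0. Dab2 in Sox2-KD, at a mean of 6.08, sits above Hnf4a in control at 2.01, whereas in the other groups Dab2 is at or below the level of Pdgfra.

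Over the 8 libraries the Pearson correlation of log2 CPM was 0.94 between Dab2 and Gata6, 0.88 between Dab2 and Sox17 and 0.93 between Gata6 and Sox17. It was -0.43 between Dab2 and Gata4, 0.47 between Dab2 and Pdgfra and 0.03 between Dab2 and Hnf4a. The first 3 values rest on the gap between the 2 Sox2-KD libraries and the other 6, so they describe one shared step and not a graded relation. Among tested genes with an average log2 CPM over 1, the patterns most like that of Dab2 were those of Cers2 (0.985), a ceramide synthase, Sh3d21 (0.984) and Fry (0.983). For Gata6 they were Gucd1 (0.992), Phldb2 (0.990) and Esrp2 (0.985), an epithelial splicing factor, and for Sox17 they were Rnf128 (0.992), B4galt5 (0.990) and Ssbp3 (0.969). Phldb2, for example, had 379 and 424 counts in control, 1143 and 1270 in Sox2-KD, 527 and 325 in the pair labelled hnRNPK-KD and 360 and 382 in Cdk9-KD. For Gata4, highest in Cdk9-KD, they were Robo1 (0.972), a Slit receptor, Rgs19 (0.943) and 2210016L21Rik (0.943). For Pdgfra they were Crip2 (0.937), Git2 (0.923) and Gpr160 (0.918), and for Hnf4a Pigv (0.951), Gm37584 (0.920) and Aarsd1 (0.904). All of these points share libraries and control cells, and the values carry no test.

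The genes around the members were compared in the same fit. Of 148 genes within 500 kb of a member, 47 were tested, and 5 of them were called in Sox2-KD against control, beside 4.32% of all tested genes called in either direction. These 5 were named after their values were seen. Near Dab2, 1 of 5 tested neighbours was called, the gene model Gm2245, 163629 bases away, which had 16 and 36 counts in control and 121 and 225 in Sox2-KD (log2FC 2.71 ± 0.50 SE, edgeR adjusted p = 0.0158). Near Gata6, Abhd3 went from 37 and 28 counts to 104 and 103 (log2FC 1.65 ± 0.33 SE, edgeR adjusted p = 0.0228). Kit, a receptor tyrosine kinase gene 376701 bases from Pdgfra, fell from 4065 and 6244 counts to 524 and 514 (log2FC -3.33 ± 0.21 SE, edgeR adjusted p = 0.000152), while Pdgfra itself was not called. Near Hnf4a, Ada and Gtsf1l fell (log2FC -2.11 ± 0.35 SE and -0.94 ± 0.18 SE, edgeR adjusted p = 0.0107 and 0.0178). The same test called 0 of the 47 in the pair labelled hnRNPK-KD, beside 0% of all tested genes. DESeq2 also called 0 there, and 3 had an unadjusted p under 0.05, beside 1325 of 16504. In Cdk9-KD the edgeR test called 0, beside 0.139% of all tested genes. DESeq2 called 1, Kit, and 7 had an unadjusted p under 0.05, beside 1720 of 16504.

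Relatives and ligands of the members were taken next, 10 genes of which 7 were tested. In Sox2-KD 2 were called higher and 1 lower, beside 2.63% and 1.69% of all tested genes. The median log2FC was 0.19, beside 0.02 over all tested genes. Gata3, a GATA factor of trophectoderm, rose from 5 and 3 counts to 43 and 50 (log2FC 3.48 ± 0.58 SE, edgeR adjusted p = 0.0103), and Gata2, which acts in blood and trophoblast, rose from 88 and 31 to 206 and 231 (log2FC 1.86 ± 0.44 SE, adjusted p = 0.0404). Gata3 passed the count filter only through Sox2-KD. Dab1, the neuronal adaptor of reelin signalling and the relative of Dab2, fell from 63 and 63 counts to 23 and 10 (log2FC -1.95 ± 0.41 SE, adjusted p = 0.0255), opposite to Dab2. Pdgfa, which encodes a ligand of PDGFRA, was at 1595 and 1296 counts in control and 1376 and 1299 in Sox2-KD and was not called. Gata5 and Hnf4g had no count in any library. These calls depended on single libraries: Gata2 alone was called without control replicate 1, and none without control replicate 2 or Sox2-KD replicate 2.

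Further endoderm factors gave no call in Sox2-KD. Of 7 genes, among them Foxa2, Otx2 and Hhex, 4 were tested, and 0 were called by edgeR in Sox2-KD, beside 4.32% of all tested genes. DESeq2 also called 0, and 0 had an unadjusted p under 0.05. Of all 16504 tested genes DESeq2 called 1029, and 3182 had such a p. With 4 genes tested, 0 calls is near these shares, so nothing is read from it. Hhex was at 126 and 124 counts in control and 128 and 168 in Sox2-KD, and Foxa2, a defining gene of definitive and visceral endoderm, had at most 6 counts in any library.

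Of 12 genes of FGF signalling through ERK, all tested, the edgeR quasi-likelihood test called 3 higher in Sox2-KD and 0 lower, with a median log2FC of 0.11. It called 2.63% of all tested genes higher and 1.69% lower. Fgfr2, an FGF receptor of primitive endoderm and trophectoderm, rose from 10 and 8 counts to 74 and 60 (log2FC 2.86 ± 0.51 SE, edgeR adjusted p = 0.0141). Spry4, a feedback inhibitor of the pathway, rose from 131 and 208 counts to 518 and 633 (log2FC 1.74 ± 0.40 SE, adjusted p = 0.0373), and Fgfr1 from 1554 and 1680 to 2755 and 3362 (log2FC 0.90 ± 0.20 SE, adjusted p = 0.0326). Spry2, Dusp6, Etv4 and Etv5 of the same list were not called in Sox2-KD, at log2FC 0.33, 0.76, -0.05 and -0.02. Fgf4, the ligand made by ESCs, was at 3859 and 3226 counts in control and 1696 and 2740 in Sox2-KD (log2FC -0.69 ± 0.22 SE, edgeR adjusted p = 0.112). It was not called, but DESeq2 and the likelihood ratio test called it lower, as did edgeR without Sox2-KD replicate 2. Spry4 was also above control in the other knockdowns, at 440 and 780 counts in the pair labelled hnRNPK-KD and 974 and 426 in Cdk9-KD (log2FC 1.88 ± 0.40 SE and 2.09 ± 0.40 SE, adjusted p = 0.304 and 0.097). None of the 3 was called once a single control or Sox2-KD library was left out.

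The receptors and partners with which DAB2 works in endocytosis came to 6 genes, of which 5 were tested. In Sox2-KD 2 were called higher and 0 lower, beside 2.63% and 1.69% of all tested genes, with a median log2FC of 0.65. Lrp2, which encodes megalin, the cargo receptor whose tail DAB2 binds, rose from 167 and 182 counts to 831 and 626 (log2FC 2.04 ± 0.33 SE, edgeR adjusted p = 0.00948). Lrpap1, the chaperone of that receptor family, rose from 2099 and 2118 counts to 3198 and 3530 (log2FC 0.65 ± 0.15 SE, adjusted p = 0.0346). Cubn, the partner receptor of Lrp2 in visceral endoderm, had at most 12 counts in any library. Both calls were lost when a control library was left out, and Lrp2 alone was called when a Sox2-KD library was.

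Products of parietal and visceral endoderm moved in both directions. Of 18 genes, 14 were tested, and in Sox2-KD 1 was called higher and 2 lower, with a median log2FC of 0.45. Over all tested genes the shares were 2.63% and 1.69%. Sparc, a matrix protein abundant in parietal endoderm, rose from 2309 and 3105 counts to 6434 and 8223 (log2FC 1.42 ± 0.20 SE, edgeR adjusted p = 0.00563). Lama1 and Nid1, which encode basement membrane proteins of the same tissue, fell, Lama1 from 4307 and 3790 counts to 1617 and 2431 (log2FC -1.01 ± 0.20 SE, adjusted p = 0.0215) and Nid1 from 6162 and 7226 to 3317 and 3974 (log2FC -0.90 ± 0.17 SE, adjusted p = 0.0192). The collagen IV genes of the list lay higher and were not called. Col4a1 was at 137 and 40 counts in control and 381 and 197 in Sox2-KD (log2FC 1.68 ± 0.58 SE). Col4a2 was at 89 and 48 counts in control and 204 and 168 in Sox2-KD (log2FC 1.42 ± 0.40 SE). DESeq2, the likelihood ratio test and the replicate block called Col4a2 higher. Lamb1 and Lamc1 were not called. Of the secreted proteins of visceral endoderm, Afp had at most 3 counts, Ttr at most 1 and Apoa1 at most 5 in any library. Apob, which encodes the protein of lipoprotein particles, was at 15 and 4 counts in control, 8 and 4 in Sox2-KD, 20 and 93 in the pair labelled hnRNPK-KD and 3 and 6 in Cdk9-KD. Only Sparc was called when control replicate 1, control replicate 2 or Sox2-KD replicate 1 was left out.

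**Figure D4:**
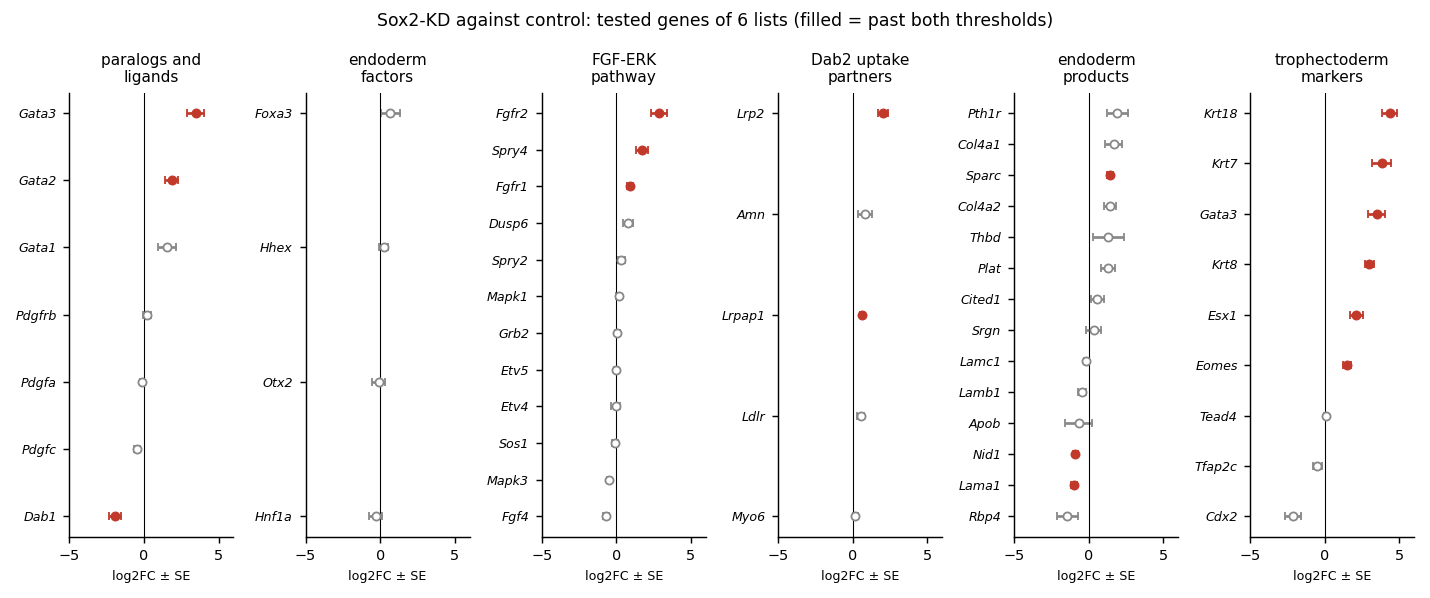
Fitted log2FC ± SE in Sox2-KD against control (x axes) of the tested genes of 6 lists (y axes), with filled red points for genes past both thresholds. Lrp2 at 2.04, Fgfr2 at 2.86 and Gata3 at 3.48 are filled on the right, Dab1, Lama1 and Nid1 on the left, and the trophectoderm panel holds the most filled points, 6 of 9.

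In the other knockdowns these 5 lists gave 0 calls by the edgeR quasi-likelihood test. That test called 0% of all tested genes in the pair labelled hnRNPK-KD. In Cdk9-KD it called 0.0545% higher and 0.0848% lower, so few calls could come from any list. In the pair labelled hnRNPK-KD, unadjusted p under 0.05 came from 2 genes of the relatives and ligands, 1 of the endoderm factors, 3 of the FGF list, 2 of the uptake list and 3 of the products, and DESeq2 called 1 gene, Spry4. Over all 16504 tested genes 1325 had such a p and DESeq2 called 74. In Cdk9-KD the numbers were 3, 1, 2, 0 and 3, and DESeq2 called Dab1, Pdgfa, Otx2, Dusp6 and Spry4. Over all tested genes they were 1720 and 221 there. Dab1 had 162 and 250 counts in Cdk9-KD and 138 and 174 in the pair labelled hnRNPK-KD, above the 63 and 63 of control, and thus lay on the other side of control from Sox2-KD.

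Markers of other cell types were read in the same libraries. Of 11 trophectoderm markers 9 were tested, and 6 were called higher in Sox2-KD and 0 lower, at a median log2FC of 2.11. Over all tested genes 2.63% were called higher and 1.69% lower. Krt18 rose from 58 and 50 counts to 754 and 1450 (log2FC 4.34 ± 0.52 SE, edgeR adjusted p = 0.00282), Krt7, which passed the count filter only through Sox2-KD, from 5 and 5 to 59 and 86, and Krt8 from 326 and 303 to 1768 and 3187. Krt8 and Krt18 are simple keratins that endoderm also makes, and Gata3 is in the list above as well. Cdx2, a defining factor of trophectoderm, was not called, at 351 and 613 counts in control and 111 and 109 in Sox2-KD (log2FC -2.15 ± 0.54 SE, adjusted p = 0.0521). It was called lower with the replicate block, the likelihood ratio test, DESeq2 size factors, only the 4 libraries compared and without either library labelled hnRNPK-KD. Elf5 had at most 2 counts and Hand1 at most 23. Only Krt8 and Krt18 of the list were called without control replicate 1, control replicate 2 or Sox2-KD replicate 2. The summed level of the list was 144 to 150 CPM in control, 245 to 378 in Sox2-KD, 148 to 173 in the pair labelled hnRNPK-KD and 142 to 144 in Cdk9-KD. The higher sum in Sox2-KD came mainly from Krt8 and Krt18. Krt8 was at 18.4 and 17.4 CPM in control and 97.1 and 182 in Sox2-KD, and Krt18 at 3.27 and 2.86 and at 41.4 and 82.7. Tfap2c lay lower, at 43.4 and 43.0 CPM in control and 28.7 and 32.5 in Sox2-KD, but was not called (log2FC -0.50 ± 0.29 SE, edgeR adjusted p = 0.398). The sum therefore does not show that the list as a whole moved with Dab2. The part of this list in the values of Dab2 and Gata6 was not tested.

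Lineages that share some of these genes were read from 4 further lists. Of 7 markers of primitive streak and definitive endoderm 4 were tested, and 1, Gsc, fell in Sox2-KD (log2FC -2.63 ± 0.62 SE, edgeR adjusted p = 0.0403), a call that DESeq2 did not give. Their sum was 13.9 to 28.9 CPM in control and 5.25 to 12.5 in Sox2-KD, and Cer1 and Mesp1 had at most 2 counts. Endothelial, cardiac and fibroblast lists, of 6 genes each, had 3, 2 and 4 genes tested and 0 called in Sox2-KD by edgeR, with 1 gene each at an unadjusted p under 0.05 (Tek, Tnnt2 and Col1a2). DESeq2 called Tek and Col1a2, both lower. Of all 16504 tested genes edgeR called 4.32% in this contrast, DESeq2 called 1029, and 3182 had such a p. So few genes were tested in each of the 4 lists that nothing is read from these counts. Summed levels in control and Sox2-KD were 152 to 159 and 98.9 to 143 CPM for the endothelial list, most of it Pecam1, which ESCs make, 4.18 to 4.34 and 3.35 to 7.36 for the cardiac list, and 5.44 to 6.53 and 4.34 to 4.40 for the fibroblast list. Emcn was at 0 counts in all libraries, Cdh5 at 1 and 1 in control and 7 and 12 in Sox2-KD, and Nkx2-5, Hand2 and Postn at no more than 3 counts in any.

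The other members lie on chromosome 14 (Gata4, 63198922 to 63271692, and Sox7, 63943673 to 63950732), chromosome 18 (Gata6, 11052064 to 11085635), chromosome 1 (Sox17, 4490931 to 4497354), chromosome 5 (Pdgfra, 75152292 to 75198215) and chromosome 2 (Hnf4a, 163506808 to 163572910) of GRCm38. Genes annotated over them on either strand had at most 2 counts in any library. The strand and shared-read settings of the counting are not given in the sources used here. Reads that the counting may have dropped in shared exons therefore cannot be told from these counts. Gm37587 shares 804 exon bases with Sox17, and Gm42802 shares 456 with Pdgfra. Overlaps were checked for these 7 genes only.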

How the data were processed

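RNA-seq of polyA RNA from 8 libraries in 4 groups was used as the authors deposited it, as raw read counts per gene, not normalized and not pooled. The authors trimmed reads with Trimmomatic and aligned them to mm10 (GRCm38) with STAR, 2.7.9a in the submitters' processing notes, which also name FastQC and featureCounts 2.0.1. Strand and shared-read settings are not given in the sources used here. All count columns were matched to a sample by name. Total counts were 16709201 to 17719366, so genes under about 10 counts carry wide counting error.

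Symbols (55154 of 55335 genes), positions and exon lengths came from GENCODE vM21. After filterByExpr (minimum count 10, total 15), 16504 genes were fitted in 1 model with edgeR 4.0.16 (R 4.3.3), TMM, a group term and the quasi-likelihood test with Benjamini-Hochberg adjustment. DE genes passed 0.05 on the adjusted p and 0.6 on the absolute log2FC. Counting intervals are exact binomial (95%). Figures used matplotlib 3.10.9 in Python 3.11.15.

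The members and lists were chosen with earlier results of these data known. Named genes were all members, the 3 targets, up to 4 called genes a list by size of log2FC, or the 2 most abundant where none was called, the 3 genes most like each member, and others named for their role or, for neighbours, after their values were seen. The test was tried on simulated counts. Promoters were found for 3 of 7 members. Alternatives included DESeq2 1.42.0, other scalings, filters and thresholds, a replicate block, the likelihood ratio test and leaving out each library. Splicing was not analysed here, and 1 gene of the lists is not reported here.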

Additional observations from a re-analysis of the deposited data

How the results depend on the processing

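Of 30 member log2FC values, 429 recomputed values stayed within the replicate spread, 27 moved beyond it and 0 called ones changed sign. With at least 10 counts in every library only Hnf4a and Pdgfra of the set remained, with 0 called in Sox2-KD against control, against the pair labelled hnRNPK-KD and against Cdk9-KD, because Dab2 and Gata6 were filtered out. Without single libraries, members called in Sox2-KD numbered 1 to 2 against control and 1 to 2 against the pair labelled hnRNPK-KD, Gata6 being the one lost, and 2 to 3 against Cdk9-KD. Called genes in Sox2-KD against control numbered 0 to 3 without single libraries for relatives and ligands, 0 to 3 for the FGF list, 0 to 2 for the uptake list and 1 to 4 for endoderm products. In the uptake list 1 gene, Lrp2, was called with no filter and 1 with an absolute log2FC over 1. DESeq2 and the likelihood ratio test each called 1 FGF gene (Spry4) in the pair labelled hnRNPK-KD and, in Cdk9-KD, 2 relatives and ligands, 1 endoderm factor and 2 FGF genes, and the likelihood ratio test 1 product (Srgn). Trophectoderm calls in Sox2-KD, added after seeing the data, numbered 2 without control replicate 1, control replicate 2 or Sox2-KD replicate 2 (Krt8 and Krt18) and 3 with at least 10 counts in every library, and 4 to 7 otherwise, the seventh being Cdx2, lower. All genes called in Sox2-KD against control were 713, 1029 with DESeq2, 1350 with the likelihood ratio test and 144 to 840 without single libraries. With fewer libraries the spread rests on fewer degrees of freedom.

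Sox2 itself missed the threshold with library totals (log2FC -0.57), without a filter (-0.68), with 10 or more counts in every library (-0.64), the 4 libraries compared (-0.66) and without most single libraries (-0.83 to -0.46). Hnrnpk in the pair labelled hnRNPK-KD reversed to 0.03 without replicate 1 and was -0.70 without replicate 2. Cdk9 passed in Cdk9-KD with DESeq2 (-0.93), the likelihood ratio test (-0.91) and without Cdk9-KD replicate 1 (-1.19). With the replicate number as a block, Sox2 had a log2FC of -0.64 and missed the threshold (adjusted p = 0.0669), 2 members stayed called in Sox2-KD against control, and against Cdk9-KD 2 were called, Sox17 having lost its call. Correlations of same-numbered deviations between groups were low, from -0.22 to 0.21, with 0.21 between control and Sox2-KD. Whether same-numbered libraries shared a batch was not tested. The cause of these changes was not tested. Genes under about 10 counts, Sox7, Sox17 and Gata6 outside Sox2-KD, are limited by depth.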

Other observations

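Genes of the same lists also differed between Sox2-KD and the other knockdowns without passing against control. Plat, which encodes tissue plasminogen activator, a product of parietal endoderm, was at 14 and 26 counts in control, 40 and 60 in Sox2-KD, 6 and 3 in the pair labelled hnRNPK-KD and 10 and 6 in Cdk9-KD. It was higher in Sox2-KD than in the pair labelled hnRNPK-KD (log2FC 3.38 ± 0.58 SE, edgeR adjusted p = 0.0106) and than in Cdk9-KD (log2FC 2.56 ± 0.53 SE, adjusted p = 0.0165). Srgn, a proteoglycan core protein, had 20 and 26 counts in Sox2-KD and 2 and 1 in Cdk9-KD (log2FC 3.77 ± 0.73 SE, adjusted p = 0.0121). Otx2 was lower in Sox2-KD (34 and 21 counts) than in the pair labelled hnRNPK-KD (54 and 108 counts, log2FC -1.62 ± 0.41 SE, adjusted p = 0.0448) and than in Cdk9-KD (105 and 94 counts, log2FC -1.92 ± 0.41 SE, adjusted p = 0.0187), with 27 and 31 counts in control. Pdgfa was lower in Sox2-KD than in Cdk9-KD (log2FC -0.77 ± 0.14 SE, adjusted p = 0.0112), and so was Fgf4 (log2FC -1.08 ± 0.22 SE, adjusted p = 0.0159). Without Sox2-KD replicate 2, Fgf4 was still called and the other calls of Plat, Srgn, Otx2 and Pdgfa were lost.

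In Cdk9-KD, where Gata4 was highest but not called, 2 of 9 tested trophectoderm markers were called against control. Beside them, 0.0545% of all tested genes were called higher and 0.0848% lower. Eomes rose from 68 and 45 counts to 333 and 241 (log2FC 2.39 ± 0.28 SE, edgeR adjusted p = 0.0191), and Tfap2c fell from 771 and 751 to 225 and 132 (log2FC -2.04 ± 0.31 SE, adjusted p = 0.0416). Neither was called without control replicate 1 or control replicate 2, nor was Tfap2c without Cdk9-KD replicate 2. Eomes was also called in Sox2-KD, at 163 and 162 counts (log2FC 1.50 ± 0.28 SE, adjusted p = 0.0166), a call that was lost when any single control or Sox2-KD library was left out.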
